A study of Mus musculus with 18 samples.

Results

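Transcript levels of the tumour suppressor p53 (Trp53 in the mouse) and of genes known as its targets were followed over a doxycycline (Dox) treatment that induces Rnaseh1 and over gastruloid differentiation. The set has 34 genes, taken by name from a list of p53 pathway genes and not by a threshold on their values, out of 55401 genes in the deposited tables. The list was chosen with earlier results of these data known, so its counts beside those of all genes are descriptive. All 34 passed the filter on low counts, which left 17795 genes. They were grouped by known function into p53 and its feedback regulators (3), cell cycle and growth (6), apoptosis and death receptors (14), DNA repair and nucleotide supply (4), and metabolism, detoxification and a secreted factor (7).

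p53 is a transcription factor that is held at a low level by the ubiquitin ligase Mdm2 and its partner Mdm4, and that is stabilised when DNA is damaged, when ribosome assembly fails or when other stress signals arise. It binds paired copies of a short DNA motif and raises genes that halt the cell cycle, repair DNA or trigger apoptosis, and Mdm2 is itself such a target, which closes a negative feedback loop. Since p53 is controlled largely at the protein level, its transcript level does not report its activity. In embryonic stem cells p53 is abundant, and in early embryos its target genes take part in the removal of less fit cells.

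The libraries came from RHKI, a mouse embryonic stem cell line derived from E14Tg2a with an HA-tagged Rnaseh1 knock-in. Rnaseh1 encodes ribonuclease H1, which digests the RNA strand of RNA:DNA hybrids, the core of R-loops. A gastruloid is a clump of such cells, grown in suspension, in which embryo-like tissues and axes arise. Each of 6 groups held 3 poly(A) RNA libraries: control and Dox cells at day 0 (0 h), control and Dox gastruloids at day 3 (72 h), and control and Dox gastruloids at day 5 (120 h). The Dox groups received 500 ng/ml over the 48 h that preceded differentiation, and it is not stated whether the drug was kept in the medium afterwards. Every group carried the same knock-in, and no group without it received Dox, so an effect of Dox itself and one of Rnaseh1 induction cannot be told apart. All groups came from 1 line, and nothing in the labels says that replicates were separate cultures, so the p-values rest on a spread between samples that may be only technical. The labels' batch tag has the same value as the replicate number.

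Library totals ranged from 25748897 to 38128366 counts. Rnaseh1 itself checked the labels: its mean level in Dox against control libraries was 153 against 28.3 CPM at day 0, 68.1 against 23.5 CPM at day 3 and 57.1 against 19.7 CPM at day 5, with no overlap at any day. CPM are counts scaled for sequencing depth, here to each library's effective size from the trimmed mean of M values (TMM). Naive stem cell markers summed to between 2646 and 3078 CPM in the day 0 libraries and to between 8.11 and 11.6 CPM at day 5. Neural progenitor markers summed to between 14.5 and 24.3 CPM at day 0 and to between 690 and 752 CPM at day 5. The rRNA gene CT010467.1 took 4.76% of the counts in day 0 Dox replicate 2 and at most 0.483% in the other 17 libraries.

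Promoters that carry the known p53 motif are shown for 4 members whose day 5 Dox libraries all lay below the controls in the comparison below. RefSeq's promoter table (build GRCm38.p6) held 26 of the 34 members. In the 250 bases upstream of an annotated start, 10 of those 26 members had at least 1 perfect match to the p53 consensus decamer, against 8.2% of the 27025 genes in the table. The decamer is its own reverse complement, so a match lies on both strands. Only Cdkn1a of the 26 had 2 perfect decamers separated by at most 13 bases, an arrangement found in 0.0666% of genes. The other annotated start of Cdkn1a had no decamer. Sites that depart from the consensus were not counted or marked, and which bases p53 binds was not tested. The upstream stretches of 4 of the members with a decamer are printed 5′ to 3′ on the gene's strand, without annotated exon sequence, with the decamers in capitals. Cdkn1a lies at chr17:29090729-29090975 on the plus strand, with decamers that start 73 and 51 bases upstream of the start site. On the minus strand, Ccng1 lies at chr11:40755312-40755536, Mdm2 at chr10:117710759-117711008 and Bax at chr7:45466899-45467148, each with 1 decamer, which starts 185, 186 and 201 bases upstream, respectively.
Cdkn1a: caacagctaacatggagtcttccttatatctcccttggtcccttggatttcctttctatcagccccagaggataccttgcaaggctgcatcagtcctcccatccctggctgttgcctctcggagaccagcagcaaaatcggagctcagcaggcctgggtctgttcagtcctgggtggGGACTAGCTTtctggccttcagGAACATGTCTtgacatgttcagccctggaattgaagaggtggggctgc
Ccng1: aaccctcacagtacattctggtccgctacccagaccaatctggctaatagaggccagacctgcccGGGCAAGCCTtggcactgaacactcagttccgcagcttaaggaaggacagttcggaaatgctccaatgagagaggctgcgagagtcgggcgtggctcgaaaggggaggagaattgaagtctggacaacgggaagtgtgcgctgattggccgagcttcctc
Mdm2: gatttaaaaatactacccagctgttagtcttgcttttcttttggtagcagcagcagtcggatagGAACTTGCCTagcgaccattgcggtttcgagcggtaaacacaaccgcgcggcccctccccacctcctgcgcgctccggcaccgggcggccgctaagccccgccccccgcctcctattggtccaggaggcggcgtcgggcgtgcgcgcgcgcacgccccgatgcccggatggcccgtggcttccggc
Bax: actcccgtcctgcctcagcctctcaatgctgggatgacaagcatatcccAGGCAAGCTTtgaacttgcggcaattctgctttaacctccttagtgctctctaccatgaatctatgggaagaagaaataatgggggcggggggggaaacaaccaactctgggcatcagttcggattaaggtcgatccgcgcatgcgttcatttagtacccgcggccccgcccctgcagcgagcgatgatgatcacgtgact
At day 5 Cdkn1a and Ccng1 were called lower with Dox and Mdm2 and Bax were not, and no difference between these genes was tested. Of the members with a decamer that are not printed, Aen, Ddit4l, Ei24, Polk and Trp53 also had all Dox libraries below the controls. Sesn1 did not, and only Aen was called lower. Among members with entries but without a decamer, Plk2, Gtse1, Bbc3, Phlda3, Pidd1, Eda2r and Ak1 were called lower at day 5. All of these, and also Ptpn14, Apaf1 and Dcxr, which were not called, had all Dox libraries below the controls. This held for 12.3% of all genes tested. A match in these letters is a description of the sequence only, and a missing match says nothing about the factor.

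The transcripts of the set differed widely in level when compared per length, in TPM, the authors' length-scaled share of all transcripts. In day 0 control cells the highest mean levels were those of Bax (486 TPM) and Trp53 (460 TPM), and the lowest was that of the death receptor gene Fas (0.433 TPM). In day 5 controls Bax (303 TPM) and Trp53 (245 TPM) were again the highest, followed by Ccng1 (244 TPM), and the lowest was the secreted factor Gdf15 (0.0467 TPM). Fas did not exceed 0.642 CPM in any library, so its fold changes had wide errors.

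**Figure D1:**
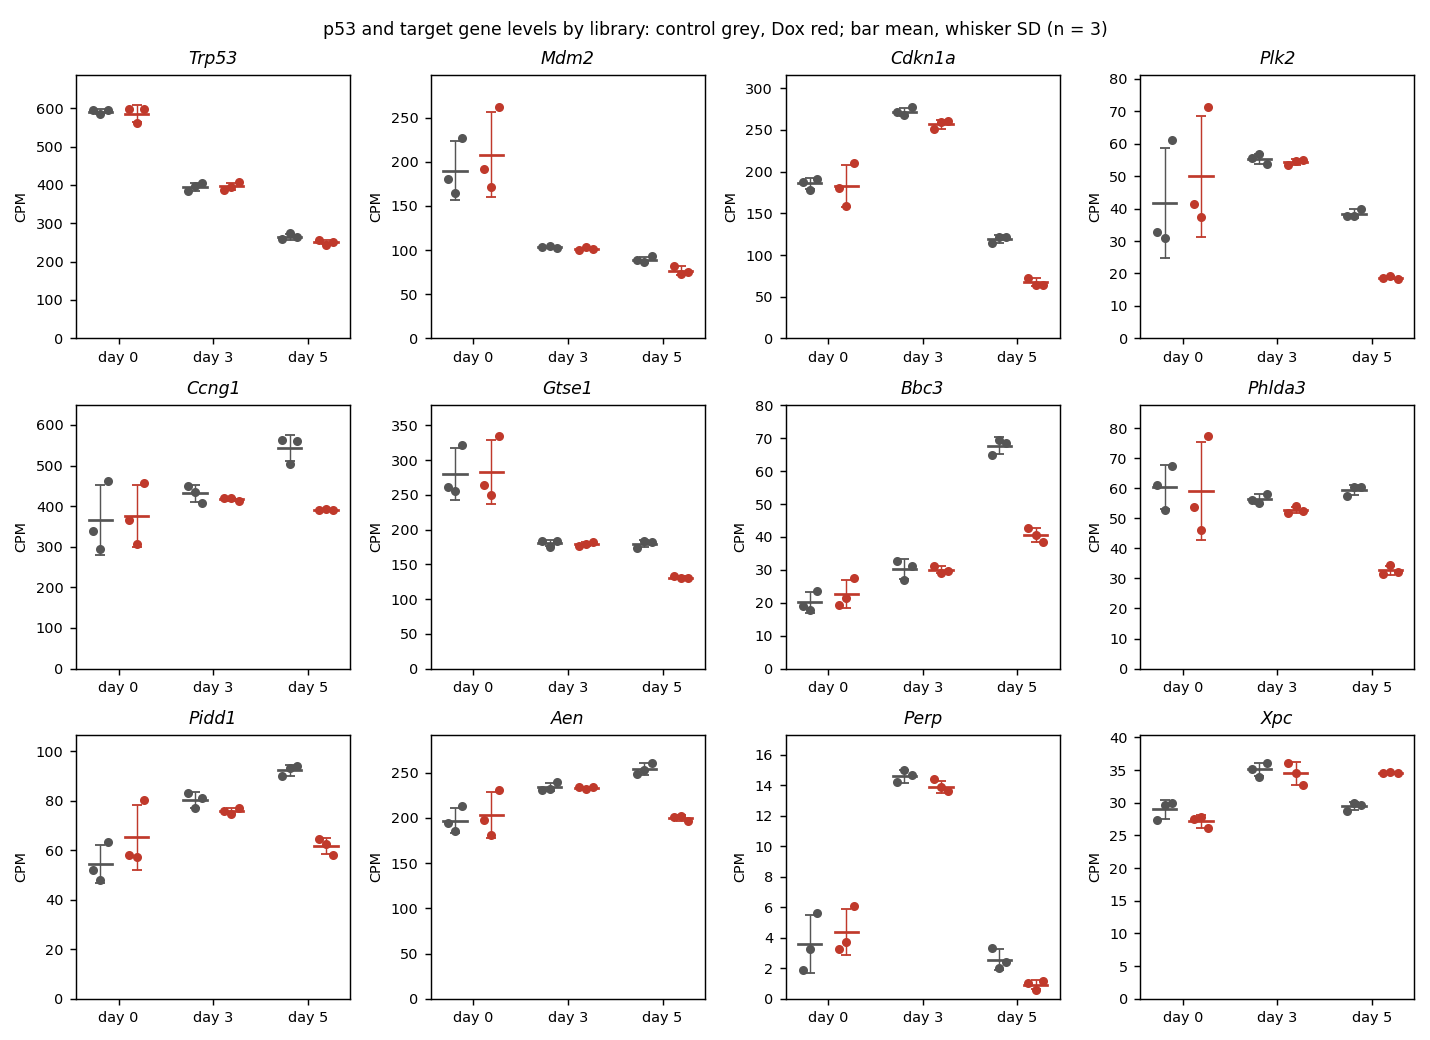
Levels of 12 members in each of the 18 libraries, in TMM-scaled CPM on axes that start at 0, by day, control in grey and Dox in red. Each point is 1 library, each line a group mean and each whisker the SD (n = 3). Cdkn1a, Plk2, Bbc3 and Phlda3 show separate control and Dox points at day 5, while the points of Trp53 lie close together within each day.

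The first comparison asked how the set behaved with Dox at each day. At day 5, 13 of the 34 members were lower and 1 was higher with Dox (edgeR adjusted p under 0.05), where 4.74% of all genes tested were called, 2.34% lower and 2.39% higher. The lower members were 38.2% of the set. They held 4 of the 6 cell cycle genes (Cdkn1a, Ccng1, Plk2, Gtse1), 8 of the 14 apoptosis genes (Bbc3, Tnfrsf10b, Eda2r, Perp, Phlda3, Aen, Pidd1, Zmat3) and 1 of the 7 metabolic genes (Ak1). The higher member was the repair gene Xpc, 1 of 4 in its group, and none of the 3 feedback genes was called. The count was 17 with the replicate block (5.98% of all genes), 18 in DESeq2 (8.56% of the genes it tested) and 17 in limma-voom (6.33%). The median log2 fold change of the set was -0.34, against 0.00 for all genes tested, and 27 of 34 estimates were negative. In bulk samples, fewer cells of a type and less RNA per cell cannot be told apart.

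Of p53 and its feedback regulators, Trp53 measured 258, 274 and 264 CPM in the day 5 control libraries and 257, 244 and 251 CPM in the Dox libraries. The Dox libraries were all just below the controls, and the log2 difference was -0.08 ± 0.04 (SE, n = 3 and 3, edgeR adjusted p = 0.38). Mdm2 measured 88.3, 85.9 and 92.7 CPM in controls and 82, 72.8 and 75.1 CPM with Dox, a log2 difference of -0.22 ± 0.12 (adjusted p = 0.42). Its groups did not overlap either, and the difference did not pass the test, although it did in a fit restricted to day 5 (adjusted p = 0.031). Mdm4 measured 144, 123 and 134 CPM in controls and 149, 135 and 146 CPM with Dox, and the groups overlapped (0.10 ± 0.09, adjusted p = 0.7).

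Among the cell cycle genes, Cdkn1a encodes p21, the inhibitor of cyclin-dependent kinases through which p53 arrests the cell cycle. It measured 114, 122 and 122 CPM in day 5 controls and 73, 64.3 and 64.5 CPM with Dox. Every Dox library was far below every control, and Cdkn1a fell by 0.83 ± 0.08 on the log2 scale (edgeR adjusted p = 2.2e-06). Plk2, a polo-like kinase of centriole duplication and stress response, measured 37.7, 37.7 and 40 CPM in controls and 18.7, 19.1 and 18.3 CPM with Dox. The 3 Dox values lay close together, well below the controls, and Plk2 fell by 1.04 ± 0.22 (adjusted p = 0.0077). Gtse1, a microtubule-associated protein that restrains p53 in G2, measured 173, 183 and 182 CPM in controls and 133, 130 and 131 CPM with Dox. Its groups were well apart, and it fell by 0.45 ± 0.09 (adjusted p = 0.0048).

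Ccng1 encodes cyclin G1, a partner of the phosphatase PP2A that acts on Mdm2. It measured 564, 505 and 560 CPM in day 5 controls and 390, 393 and 390 CPM with Dox. The groups did not overlap, and Ccng1 fell by 0.47 ± 0.13 (edgeR adjusted p = 0.041). This call was lost when any 1 of the 6 day 5 libraries was left out (adjusted p of 0.064 to 0.15). The other 2 cell cycle members were not called: Btg2, an antiproliferative cofactor, had a log2 difference of -0.10 ± 0.09 and Ptpn14, a phosphatase that restrains YAP, one of -0.41 ± 0.19.

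The apoptosis group held the most called members. Bbc3 encodes Puma, a BH3-only protein that releases the mitochondrial death pathway. It measured 64.8, 69.6 and 68.7 CPM in day 5 controls and 42.8, 40.6 and 38.6 CPM with Dox, and it fell by 0.73 ± 0.11 (edgeR adjusted p = 0.00039). Phlda3, which blocks membrane recruitment of the survival kinase Akt, measured 57.5, 60.3 and 60.3 CPM in controls and 31.6, 34.4 and 32.1 CPM with Dox, and it fell by 0.86 ± 0.13 (adjusted p = 0.00037). For both genes the highest Dox library was far below the lowest control.

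Pidd1, the scaffold of the caspase-2 PIDDosome, measured 89.9, 93.4 and 94 CPM in day 5 controls and 64.5, 62.7 and 58.2 CPM with Dox, and it fell by 0.58 ± 0.10 (edgeR adjusted p = 0.0021). Aen, an apoptosis-enhancing nuclease, measured 248, 253 and 261 CPM in controls and 201, 202 and 196 CPM with Dox, and it fell by 0.35 ± 0.07 (adjusted p = 0.0035). Neither gene's groups overlapped, and both calls held in every alternative tried.

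Perp, a membrane protein of desmosomes and p53-dependent death, was low at this day, with 3.32, 2 and 2.39 CPM in controls and 1.03, 0.579 and 1.18 CPM with Dox. It fell by 1.45 ± 0.35 (edgeR adjusted p = 0.02), the largest change among the 14 called members and one of the least precise. Summed epithelial markers were also lower at day 5, at 13.6 to 16.9 CPM in controls and 8.66 to 11 CPM with Dox, with 1 of 5 called, Cdh1 (-0.97 ± 0.12, adjusted p = 7.3e-05). The part of epithelial cells in the Perp result was not tested. Without control replicate 1 the adjusted p of Perp was 0.091, without control replicate 3 it was 0.059 and without Dox replicate 2 it was 0.12.

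The death receptor genes Tnfrsf10b (the mouse TRAIL receptor) and Eda2r (the ectodysplasin A2 receptor) both fell by 0.55, with SEs of 0.13 and 0.14 (edgeR adjusted p of 0.02 and 0.03). Tnfrsf10b measured 33.4, 31.5 and 35.3 CPM in controls and 25, 22.6 and 20.7 CPM with Dox. Eda2r measured 70.3, 57.3 and 66.8 CPM in controls and 49.1, 41.3 and 42.2 CPM with Dox. In neither gene did the groups overlap, but both calls were lost without control replicate 1, control replicate 3, Dox replicate 2 or Dox replicate 3, with adjusted p of 0.054 to 0.13 for Tnfrsf10b and 0.12 to 0.15 for Eda2r. Fas, the third death receptor of the set, was too low to read (0.542, 0.349 and 0.514 CPM in controls, 0.487, 0.335 and 0.318 CPM with Dox).

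Zmat3, an RNA-binding protein that acts on splicing, measured 232, 203 and 222 CPM in day 5 controls and 180, 172 and 168 CPM with Dox, and it fell by 0.34 ± 0.10 (edgeR adjusted p = 0.048). The groups did not overlap, yet the call was lost without any 1 of the 6 day 5 libraries (0.054 to 0.2). Bax, the pore-forming effector of the mitochondrial pathway, measured 144, 157 and 148 CPM in controls and 122, 127 and 127 CPM with Dox. Its log2 difference of -0.25 ± 0.07 had an adjusted p of 0.052, which was 0.031 under the replicate block (replicate number added as a term). The other 4 apoptosis members, Pmaip1 (Noxa), Trp53inp1 (a cofactor of p53), Apaf1 (the apoptosome's core) and Ei24 (a protein of the endoplasmic reticulum), had log2 differences of 0.09 ± 0.22, -0.12 ± 0.12, -0.26 ± 0.12 and -0.20 ± 0.06 and were not called.

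Among the repair genes, Xpc, the damage sensor of global nucleotide excision repair, measured 28.8, 30 and 29.7 CPM in day 5 controls and 34.5, 34.7 and 34.6 CPM with Dox. All Dox libraries were above all controls, and Xpc rose by 0.23 ± 0.06 (edgeR adjusted p = 0.021). The call was lost without any 1 of the 6 day 5 libraries (0.052 to 0.088). Ddb2, its partner in finding damage, had a difference of 0.04 ± 0.09, the translesion polymerase Polk one of -0.36 ± 0.15 and the ribonucleotide reductase subunit Rrm2b one of 0.16 ± 0.13, none of them called. Rrm2b overlaps the processed pseudogene Gm3362 on its own strand, which averaged 7.63 CPM against 8.59 CPM for Rrm2b, so its level is uncertain. Ddb2 overlaps Acp2 on the opposite strand, which averaged 36.2 CPM, and whether counting used strand is not given.

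In the metabolic group, Ak1 (adenylate kinase 1) measured 45.7, 44.5 and 44.6 CPM in day 5 controls and 31.7, 32.8 and 30.8 CPM with Dox. Its groups were well apart, and Ak1 fell by 0.50 ± 0.08 (edgeR adjusted p = 0.0013). Dcxr, a carbonyl reductase, measured 14.7, 16 and 15.4 CPM in controls and 10.9, 10.3 and 9.85 CPM with Dox (-0.57 ± 0.19, adjusted p = 0.093, and 0.043 with the replicate block). Ddit4l, an inhibitor of mTOR signalling, measured 14.3, 14.2 and 15.7 CPM in controls and 9.86, 9.15 and 8.98 CPM with Dox (-0.66 ± 0.22, adjusted p = 0.097, and 0.046 with the block). Both genes had groups that did not overlap. Sesn1 and Tigar, which act on mTORC1 and on glycolysis, had differences of 0.02 ± 0.10 and -0.08 ± 0.06. The detoxifying hydrolase gene Ephx1 was at or below 0.671 CPM in every day 5 library, and Gdf15 had 4 counts in the 3 day 5 controls together and 1 in the Dox libraries, so neither is read further at this day.

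All 3 Dox libraries were below all 3 controls in 22 of the 34 members at day 5, where this held for 12.3% of all genes tested. All 3 were above in 1 member, Xpc, where this held for 13.8% of genes. Of the 14 calls, 8 (Cdkn1a, Plk2, Gtse1, Bbc3, Phlda3, Aen, Pidd1 and Ak1) passed in all 17 alternatives that gave a value at day 5, with a largest adjusted p of 0.046. The other 6 were also lost with all libraries kept, each on log2(TPM + 1) with limma (adjusted p of 0.056 to 0.25). In edgeR, Ccng1, Eda2r and Zmat3 were lost with library size alone (0.06 to 0.11), Zmat3 with RLE scaling (0.056) and Xpc with no filter (0.15). The share of all genes called was not computed for fits that left out a library. The number of members called was 8 without control replicate 1, without control replicate 3 and without Dox replicate 2. It was 9 without Dox replicate 3, and 11 without either of the other 2 libraries. The set's median stayed between -0.41 and -0.28 over the 17 alternatives.

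**Figure D2:**
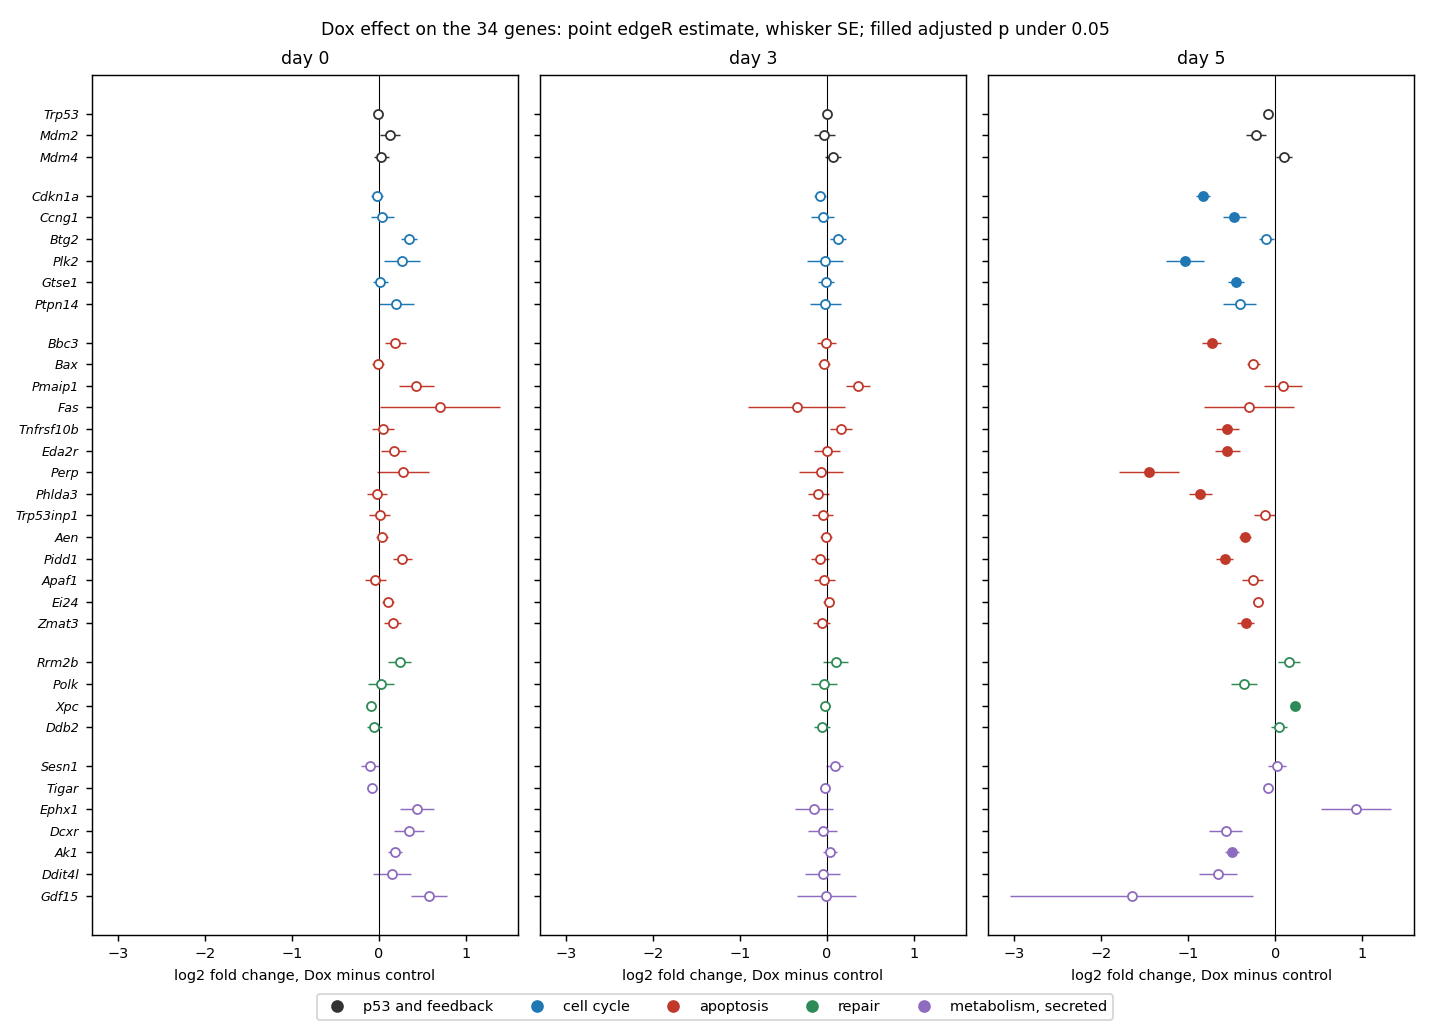
Log2 fold change of Dox against control for each of the 34 members at day 0, day 3 and day 5, on a shared axis; points are edgeR estimates, whiskers are SEs, and filled points had an adjusted p under 0.05. Estimates cluster around 0 at day 3, and 27 of 34 lie below 0 at day 5, where 13 of the filled points are lower and 1, Xpc, is higher.

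At day 0, after the 48 h of Dox and before differentiation, none of the 34 members was called by edgeR, where 1.04% of all genes tested were called. By unadjusted p under 0.05, 6 members (17.6%) differed, all of them higher with Dox, against 12.3% of all genes in either direction. DESeq2 called 1 member (3.51% of the genes it tested), the replicate block 1 (1.76%) and limma-voom 0 (1.15%). The set's median was 0.12, with 25 positive and 9 negative estimates. This median was -0.03 without Dox replicate 3, -0.00 without control replicate 2 and 0.26 without control replicate 3. The 6 members were Btg2 (0.35 ± 0.09, unadjusted p = 0.0016, adjusted p = 0.086), Gdf15 (0.58 ± 0.21, 0.014, 0.24), Pidd1 (0.27 ± 0.11, 0.023, 0.3), Ak1 (0.19 ± 0.08, 0.027, 0.32), Ephx1 (0.44 ± 0.20, 0.037, 0.36) and Pmaip1 (0.43 ± 0.20, 0.044, 0.39), each with its edgeR unadjusted and adjusted p.

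Btg2 measured 42.9, 40.2 and 51.3 CPM in day 0 controls and 52, 52.5 and 66.8 CPM with Dox. It was the only member whose day 0 groups did not overlap, which held for 4.59% of all genes tested in this direction and for 5.64% in the other. Its edgeR adjusted p was 0.038 with the replicate block, 0.018 without control replicate 3 and 0.049 without Dox replicate 1. Cdkn1a measured 187, 178 and 191 CPM in day 0 controls and 180, 159 and 210 CPM with Dox, a spread that covered the controls (-0.02 ± 0.07, adjusted p = 0.97). Trp53 measured 594, 584 and 594 CPM against 598, 561 and 598 CPM (-0.01 ± 0.04, adjusted p = 0.96), and Mdm2 180, 164 and 227 CPM against 192, 171 and 262 CPM (0.13 ± 0.12, adjusted p = 0.74). Both genes' groups overlapped.

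The day 0 libraries of both groups differed by replicate number. In 27 of the 34 members, replicate 3 was the highest library in both the control and the Dox group, which held for 20.9% of all genes tested. The exceptions were Trp53, Mdm4, Bax, Trp53inp1, Xpc, Ddb2 and Tigar. Relative to the group mean, the median member of replicate 3 stood 0.22 higher on the log2 scale in controls and 0.23 higher with Dox, while replicate 2 stood at -0.18 and -0.19 and replicate 1 at -0.06 and -0.07. Plk2, for example, measured 32.9, 31 and 61.2 CPM in controls and 41.4, 37.3 and 71.3 CPM with Dox, and Ccng1 340, 295 and 463 CPM against 365, 306 and 458 CPM.

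Replicate 3 was likewise highest in both groups in 16 of 30 other reported p53 targets (53.3%, against 20.9% of all genes tested). This held in fewer genes of the other lists. It held in 2 of 17 genes of upstream DNA damage signalling and in 2 of 15 other p53 regulators and family members. It held in 1 of 16 cell cycle genes known to be lowered through p21. Of the integrated stress response, described below, it held in 0 of the 13 genes checked. The 2 libraries of replicate 3 held 28265284 and 29171102 counts and 0.151% and 0.144% of the rRNA gene, the lowest 2 shares of the 6 day 0 libraries. At day 3 and day 5 the median member of every library stood between -0.04 and 0.06 of its group mean. The part of culture state, RNA quality or handling in the day 0 pattern was not tested.

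**Figure D3:**
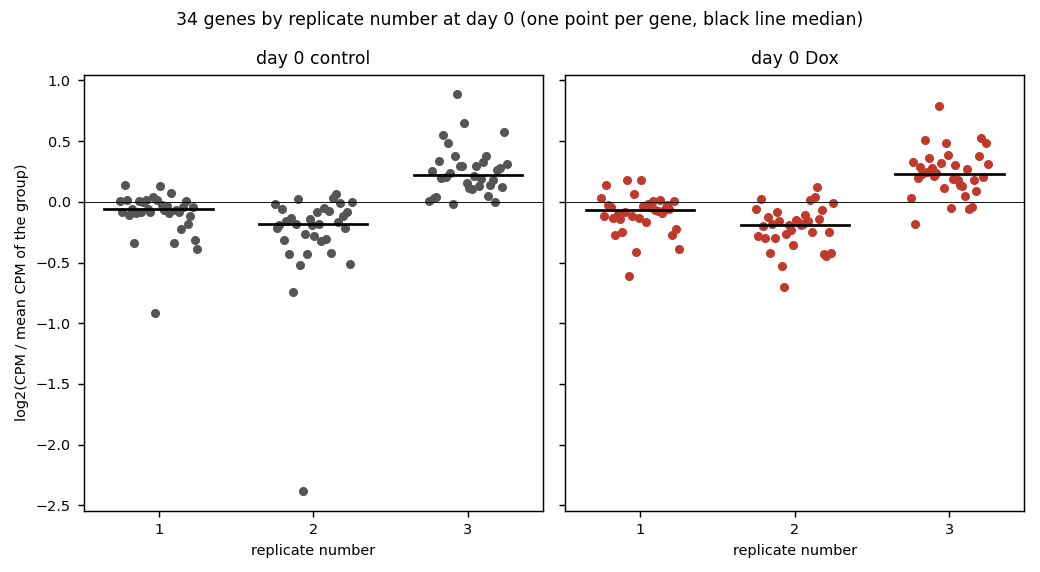
Deviation of each of the 34 members from its group mean at day 0, in log2, for each of the 3 control and 3 Dox libraries; points are genes and lines are medians. Replicate 3 stands highest in both groups, with medians of 0.22 and 0.23.

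At day 3 none of the 34 members was called by edgeR, where 0.0169% of all genes tested were called. By unadjusted p under 0.05, 1 member (2.94%) was higher, against 2.43% of all genes in either direction. DESeq2 called 0 members (0.0281% of the genes it tested), limma-voom 0 (0.0169%) and the replicate block 0 (0.0225%). The set's median was -0.02, and 25 of 34 estimates were negative. Cdkn1a measured 271, 268 and 277 CPM in controls and 251, 259 and 261 CPM with Dox (-0.08 ± 0.07, edgeR adjusted p = 1), and Trp53 385, 396 and 405 CPM against 388, 394 and 407 CPM (0.00 ± 0.04, adjusted p = 1). The control values of Cdkn1a were all above the Dox values, and those of Trp53 overlapped them. Pmaip1, which encodes Noxa, was the 1 member, with 26.2, 23.4 and 23.5 CPM in controls and 31.3, 33.1 and 29.6 CPM with Dox (0.36 ± 0.14, unadjusted p = 0.022, adjusted p = 1). Its Dox libraries were all above the controls, and the adjusted p was 0.048 when only the 6 day 3 libraries were fitted. Groups did not overlap in 4 members, with Dox lower in 2 (Cdkn1a and Phlda3, where this held for 5.46% of all genes) and higher in 2 (Pmaip1 and Tnfrsf10b, 5.66%).

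Whether the Dox effect differed between days was tested as an interaction. Between day 5 and day 0, 10 members had a different Dox effect, 9 more negative and 1 more positive at day 5, where 3.28% of all genes were called (1.52% more negative, 1.76% more positive). The log2 differences were -1.72 ± 0.46 for Perp, -1.31 ± 0.30 for Plk2, -0.92 ± 0.16 for Bbc3, -0.85 ± 0.15 for Pidd1, -0.83 ± 0.18 for Phlda3, -0.81 ± 0.11 for Cdkn1a, -0.69 ± 0.12 for Ak1, -0.47 ± 0.13 for Gtse1, -0.39 ± 0.09 for Aen and 0.32 ± 0.08 for Xpc. Of these, Cdkn1a, Bbc3, Pidd1, Phlda3 and Ak1 held in every alternative tried. The count was 16 in DESeq2 (7.29% of the genes it tested), 9 in limma-voom (2.88% of all genes) and 15 with the replicate block (4.3%). The block added Btg2, Tnfrsf10b, Eda2r, Zmat3 and Dcxr (adjusted p of 0.034, 0.047, 0.022, 0.021 and 0.023).

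The share of all genes called was not computed for fits that left out a library. In such fits the count of 10 was 19 without day 0 control replicate 3. It was 6 without day 0 control replicate 1, day 0 control replicate 2 or day 5 control replicate 2, and 5 without day 5 control replicate 3, day 5 Dox replicate 2 or day 5 Dox replicate 3. The day 0 libraries with the replicate pattern above enter this contrast. Between day 5 and day 3, where replicates were close, 3 members had a more negative Dox effect at day 5 and 0 a more positive one, where 0.82% of all genes were called (0.466% more negative). They were Cdkn1a (-0.75 ± 0.11, edgeR adjusted p = 0.0013), Bbc3 (-0.73 ± 0.16, 0.032) and Ak1 (-0.53 ± 0.12, 0.042). Cdkn1a alone passed without any 1 of the 12 libraries; the count was 2 without day 5 control replicate 1 or day 5 Dox replicate 1 and 1 without each of the other 10. The count was 5 with the replicate block (1.08% of all genes), which added Phlda3 (adjusted p = 0.023, against 0.05 without it) and Tnfrsf10b (0.044), 6 in DESeq2 (1.96% of the genes it tested) and 3 in limma-voom (0.865%). Between day 3 and day 0, 0 members were called, where 0.0562% of all genes were (0.0393% more positive, 0.0169% more negative), with 1 member at an unadjusted p under 0.05 (2.94%, against 8.05% of all genes). DESeq2 (0.842% of the genes it tested), limma-voom (0.14% of all genes) and the replicate block (0.197%) called 0 members too. These contrasts share libraries with the Dox contrasts above, so they are not separate evidence.

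The second comparison followed the set in control cells over differentiation. Of the 34 members, 13 rose and 13 fell from day 0 to day 3 (edgeR adjusted p under 0.05), where 73.5% of all genes were called, 37.2% higher and 36.3% lower. From day 3 to day 5, 7 rose and 14 fell, where 64.8% of all genes were called, 31.7% higher and 33.1% lower. In the set 38.2% rose and 38.2% fell in the first step, near the background, and 20.6% rose and 41.2% fell in the second. On log2(TPM + 1) with limma, 9 rose and 10 fell in the second step, and the share of all genes called in that fit was not computed. All 3 feedback genes fell in the first step and 1 in the second. Of the 6 cell cycle genes 3 rose and 1 fell and then 1 rose and 2 fell, and of the 14 apoptosis genes 6 rose and 3 fell and then 4 rose and 4 fell. Of the 4 repair genes 2 rose and 1 fell and then 1 rose and 2 fell, and of the 7 metabolic genes 2 rose and 5 fell and then 1 rose and 5 fell.

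Trp53 fell in both steps, from a control mean of 591 ± 6.06 CPM (SD, n = 3) at day 0 to 395 ± 9.95 at day 3 and 265 ± 8.08 at day 5, by 0.58 ± 0.04 on the log2 scale each time (edgeR adjusted p of 3.4e-10 and 6.4e-10). Mdm2 measured 180, 164 and 227 CPM at day 0 and 103, 104 and 102 CPM at day 3 and fell by 0.88 ± 0.12 (adjusted p = 2.5e-06). Its further difference to day 5 was -0.21 ± 0.12 (0.13). Mdm4 measured 375, 298 and 347 CPM at day 0 and 148, 134 and 121 CPM at day 3, fell by 1.34 ± 0.09 (1.9e-10), and measured 144, 123 and 134 CPM at day 5. In none of the 3 did day 0 overlap day 3.

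Cdkn1a did not follow Trp53. It rose from a mean of 186 ± 6.49 CPM at day 0 to 272 ± 4.91 at day 3, by 0.55 ± 0.07 (edgeR adjusted p = 1.8e-06), and fell to 119 ± 5.03 at day 5, by 1.19 ± 0.07 (7.6e-11). Ptpn14 measured 26.9, 16 and 37.5 CPM at day 0 and 158, 144 and 144 CPM at day 3, and rose by 2.48 ± 0.20 (2e-09). Gtse1 measured 262, 255 and 322 CPM at day 0 and 183, 175 and 184 CPM at day 3, and fell by 0.63 ± 0.09 (3.9e-06). From day 3 to day 5 Ccng1 rose by 0.33 ± 0.13 (0.031) and Plk2 fell by 0.52 ± 0.21 (0.035). Neither call held in every alternative. Ccng1 reached adjusted p of 0.063 to 0.1 without control replicates 2 or 3 of day 3 or 1 or 3 of day 5. Plk2 reached 0.059 to 0.08 without any 1 of the 6. With all libraries kept, Plk2 had an adjusted p of 0.076 in DESeq2, 0.054 in edgeR with library size alone and 0.16 on log2(TPM + 1) with limma.

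Of the apoptosis genes, Pmaip1 measured 2.22, 1.53 and 2.85 CPM in day 0 controls, 26.2, 23.4 and 23.5 CPM at day 3 and 1.36, 1.52 and 1.57 CPM at day 5. It thus peaked at day 3, rising by 3.48 ± 0.18 and falling by 4.03 ± 0.18 (edgeR adjusted p of 1.9e-12 and 6.3e-13). Perp had the same course, with 1.91, 3.27 and 5.65 CPM, then 14.2, 15 and 14.7 CPM, then 3.32, 2 and 2.39 CPM (2.02 ± 0.28 and -2.51 ± 0.28, adjusted p of 2.7e-06 and 3e-07). Summed epithelial markers were 466 to 542 CPM in day 0 controls, 735 to 790 CPM at day 3 and 13.6 to 16.9 CPM at day 5, and gut endoderm markers 7.08 to 16.8, 214 to 262 and 3.69 to 5.61 CPM. The part of such cells in the day 3 peaks was not tested.

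Bbc3 rose in both steps. It measured 18.9, 17.7 and 23.6 CPM at day 0, 32.6, 26.8 and 31.3 CPM at day 3 and 64.8, 69.6 and 68.7 CPM at day 5, with no overlap between days (0.59 ± 0.12 and 1.16 ± 0.11, edgeR adjusted p of 0.00014 and 2.6e-08). Bax fell from 285, 291 and 282 CPM at day 0 to 162, 167 and 182 CPM at day 3, by 0.75 ± 0.07 (2e-08), and again by 0.19 ± 0.07 to day 5 (0.029). Bbc3 and Bax thus moved in opposite directions.

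Among the repair genes Rrm2b had a minimum at day 3, with 7.37, 8.85 and 11.7 CPM at day 0, 5.81, 5.8 and 5.2 CPM at day 3 and 10.2, 8.74 and 8.98 CPM at day 5 (-0.73 ± 0.13 and 0.73 ± 0.13, edgeR adjusted p of 6.7e-05 and 8.5e-05), with the pseudogene named above as a limit. Xpc and Ddb2 were highest at day 3, with control means of 29, 35.1 and 29.5 CPM for Xpc and 15.2, 18.6 and 13.5 CPM for Ddb2 over the 3 days. Xpc rose by 0.28 ± 0.06 and fell by 0.25 ± 0.06 (0.00023 and 0.00072), and Ddb2 rose by 0.29 ± 0.09 and fell by 0.46 ± 0.09 (0.0086 and 0.00022). The rise of Ddb2 had an adjusted p of 0.064 without day 0 control replicate 1, where its log2 difference was 0.19.

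In the metabolic group Tigar, which lowers glycolytic flux, measured 140, 138 and 139 CPM at day 0, 37.2, 39.5 and 40.8 CPM at day 3 and 20.7, 22.3 and 22.4 CPM at day 5, and fell by 1.83 ± 0.06 and then by 0.85 ± 0.06 (edgeR adjusted p of 1.2e-15 and 2.9e-10). Ephx1 measured 9.32, 9.75 and 12.7 CPM at day 0, 2.32, 3 and 3.35 CPM at day 3 and 0.237, 0.38 and 0.206 CPM at day 5 (-1.86 ± 0.21 and -3.41 ± 0.31, adjusted p of 2.1e-07 and 1.7e-08). Gdf15, a stress-induced secreted factor, measured 8.42, 11 and 13.7 CPM at day 0 and 1.1, 0.591 and 0.64 CPM at day 3, and fell by 3.86 ± 0.27 (2.3e-10). At day 5 it was near 0. Dcxr peaked at day 3, with control means of 25.3, 42 and 15.4 CPM, and fell from day 3 to day 5 by 1.45 ± 0.18 (7.1e-07).

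**Figure D4:**
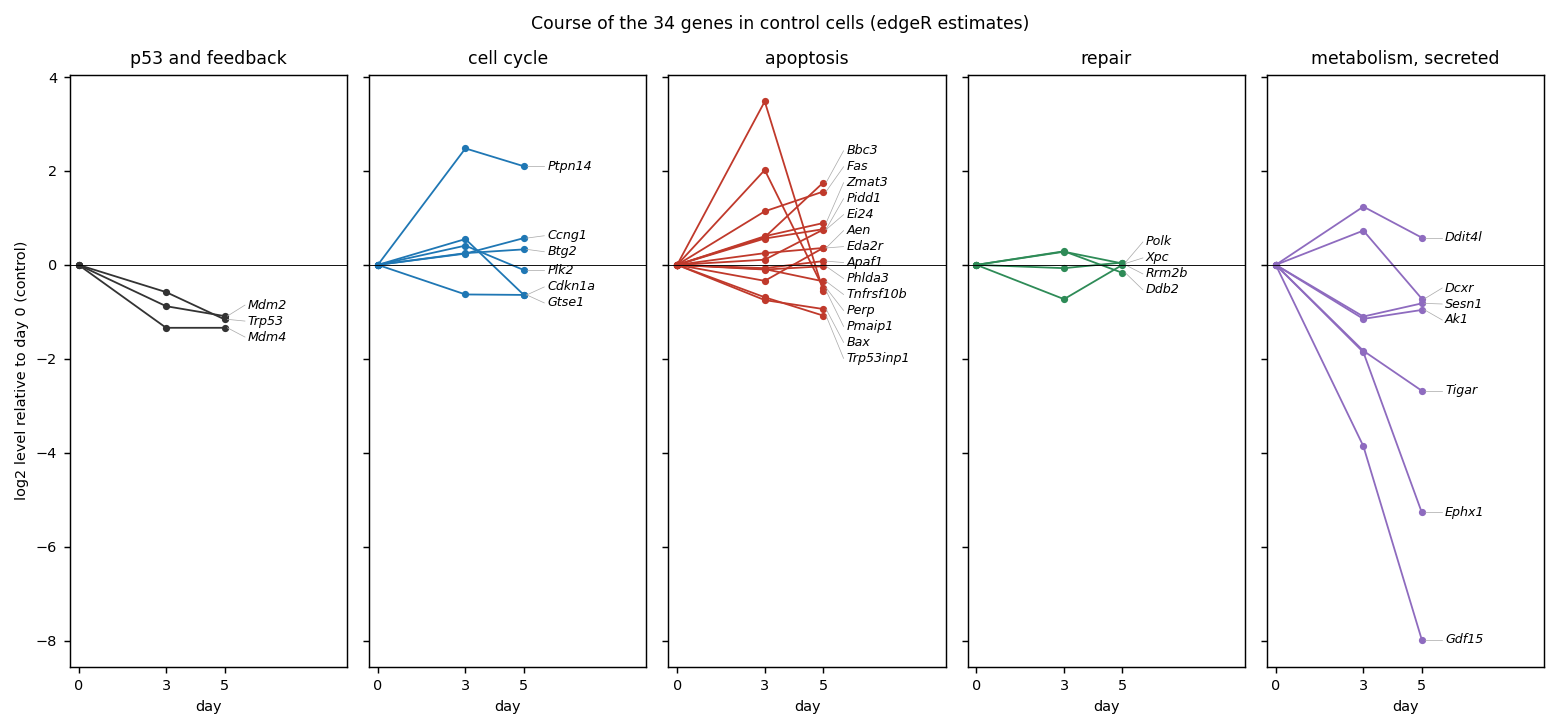
Log2 level of each member in controls relative to day 0, by functional group, at days 0, 3 and 5 (edgeR estimates, 3 libraries a day). The 3 feedback genes lie below 0 at both later days, Pmaip1 and Perp peak at day 3, and Gdf15, Ephx1 and Tigar fall furthest.

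Other genes of the pathway, from lists chosen by function with earlier results of these data known, are given by their counts at day 5. There the same 4.74% of all genes were called with Dox. Of 30 other reported p53 target genes tested, 7 were lower and 1 was higher, with a median of -0.13. Lif, the cytokine that sustains stem cells, measured 2.03, 1.84 and 2.5 CPM in controls and 1.16, 0.671 and 0.693 CPM with Dox (-1.34 ± 0.25, edgeR adjusted p = 0.0028). Zfp365, a gene of replication stress tolerance, had a difference of -0.79 ± 0.16, Tap1, a peptide transporter, one of -0.71 ± 0.17, and Sesn2, a stress-induced inhibitor of mTORC1, one of -0.58 ± 0.06. No group of these 4 genes overlapped the other.

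Upstream of p53, none of the 17 genes of DNA damage signalling was called, none had an unadjusted p under 0.05, and the median was -0.02. Of all genes tested, 16.4% had an edgeR unadjusted p under 0.05 at day 5. Among them H2afx, the histone that is phosphorylated at breaks, and Topbp1, an activator of the kinase Atr, had differences of 0.06 ± 0.06 and -0.02 ± 0.07. Of 15 other p53 regulators and family members tested, 0 were called, with 1 at an unadjusted p under 0.05 and a median of -0.03. The ribosomal proteins Rpl5 and Rpl11, which restrain Mdm2, had differences of -0.05 ± 0.06 and -0.13 ± 0.07.

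Downstream of p21, the cell cycle genes that the DREAM complex represses were nearly flat with Dox at day 5, with 1 of 16 called and a median of -0.02. That gene was Mybl2, a transcription factor of the cell cycle, with 125, 122 and 123 CPM in controls and 111, 105 and 105 CPM with Dox (-0.20 ± 0.05, edgeR adjusted p = 0.023). In this list 0 genes were called higher.

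The integrated stress response is a program of the factor Atf4 that raises amino acid synthesis and also some p53 targets such as Sesn2. Of its 14 listed genes, 4 were lower with Dox at day 5, 0 were higher and the median was -0.49. Asns, the asparagine synthetase, measured 147, 171 and 157 CPM in controls and 116, 102 and 91.6 CPM with Dox (-0.62 ± 0.08, edgeR adjusted p = 0.00017), and Psat1, Mthfd2 and Phgdh, of serine and one-carbon metabolism, had differences of -0.58 ± 0.08, -0.48 ± 0.12 and -0.40 ± 0.08. At day 0, 6 of the 14 were higher, 0 were lower and the median was 0.64, where 0.292% of all genes were higher and 0.747% lower. None of the p53 set was called at day 0. The part of the stress response in the day 5 result was not tested.

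**Figure D5:**
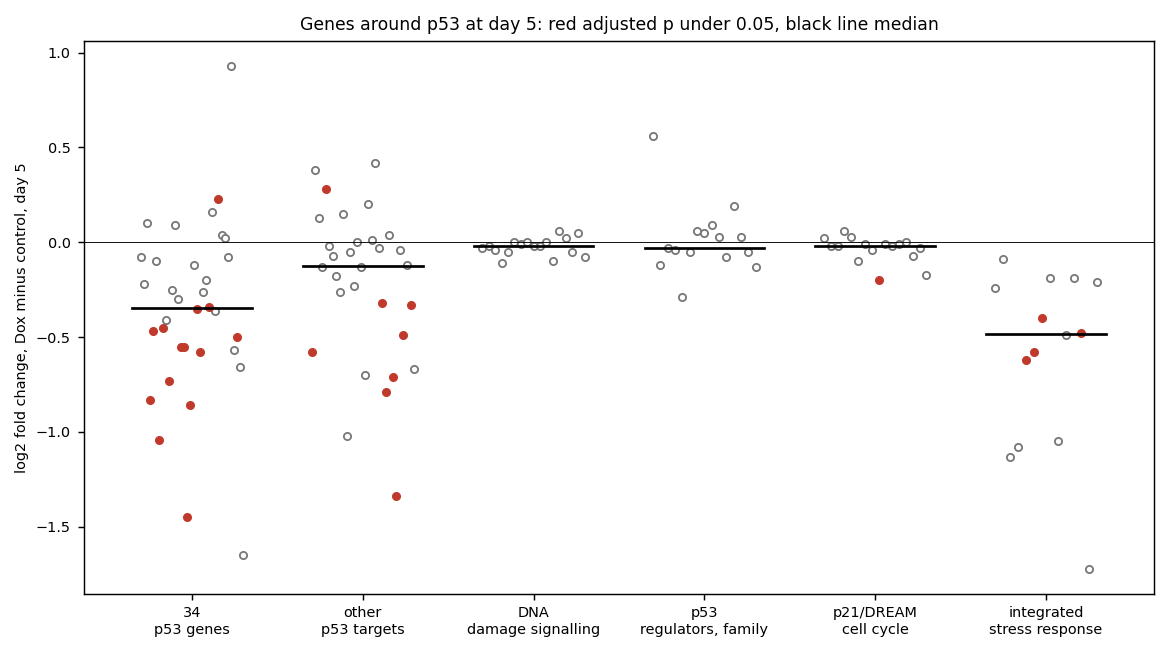
Log2 fold change with Dox at day 5 for every tested gene of the p53 set and of 5 other lists; points are genes, filled where the edgeR adjusted p was under 0.05, and lines are list medians. The p53 set has a median of -0.34, the other reported p53 targets one of -0.13 and the integrated stress response one of -0.49. The medians of the upstream, regulator and DREAM lists lie within 0.03 of 0.

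Some cell type markers also differed between the day 5 groups, while the summed levels were not tested. Presomitic and somite markers summed to 82.4 to 98.7 CPM in controls and 55 to 75.1 CPM with Dox, with 1 of 4 tested markers called, Meox1 (-0.50 ± 0.13, edgeR adjusted p = 0.029), and with Msgn1 at 0 in all 6 libraries. Fibroblast markers summed to 246 to 313 CPM and 324 to 370 CPM with 0 of 5 called, and extraembryonic endoderm markers to 118 to 132 CPM and 104 to 115 CPM, although the 1 of 5 called, Dab2, was higher with Dox (0.61 ± 0.14, edgeR adjusted p = 0.017). Summed neural markers overlapped, at 690 to 742 CPM and 706 to 752 CPM, but 2 of 5 were lower with Dox, Pax6 (-0.42 ± 0.10, adjusted p = 0.02) and the low Olig2 (-2.88 ± 0.52, 0.0022). Summed naive stem cell and gut endoderm markers overlapped too, with 1 of 6 lower, Tbx3 (-1.29 ± 0.14, 1.6e-05), and 1 of 4 lower, Foxa2 (-1.34 ± 0.25, 0.0028). Blood and endothelium markers overlapped, with 0 of 4 called. The part of these shifts in the lower levels of the p53 targets was not tested.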

How the data were processed

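Poly(A) RNA from 18 samples was sequenced, and 1 deposited gene table per sample was used. Per the submitters' processing notes, STAR 2.7.10a, Trimmomatic, DESeq2 1.38.2 and RSEM 1.3.3 were used with build GRCm38; the annotation release and strand setting are not given in the sources used here. The kit keeps strand, per the labels' protocols. The authors deposited expected counts (RSEM's estimates), of which 6.5378 to 7.4944% per table were not whole, and all were rounded. Deposited TPM served for comparisons between genes and as an alternative, and deposited FPKM was not used. Of 55401 gene IDs, 55141 matched a symbol of GENCODE M21.

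Counts were fitted in edgeR 4.0.16 (R 4.3.3) by its quasi-likelihood F test, with TMM factors (0.894 to 1.063), filterByExpr (minimum count 10, minimum total 15) and 6 group means over all 18 libraries, leaving 12 residual degrees of freedom. The common biological coefficient of variation was 0.09. Benjamini-Hochberg adjustment ran over all 17795 genes tested, and an adjusted p under 0.05 is called. The edgeR fit was tested on simulated counts, for the contrast of Dox against control at day 5 only.

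The members, lists, groups and tests were chosen with earlier results of these data known. Values in every library are given for Trp53, Mdm2, Cdkn1a, members called in a Dox contrast or a difference of Dox effects and, per functional group, up to 3 members with the largest called changes in each control step; members near the threshold were added after their values were seen. From other lists up to 4 called genes with the largest changes are named. The labels' batch tag pairs the replicate numbers. After removal of group means, same-numbered control and Dox libraries correlated across genes at 0.206 to 0.331 at day 0, 0.010 to 0.036 at day 3 and 0.022 to 0.051 at day 5. The main fit has no block. Alternatives were a replicate block, DESeq2 1.42.0, limma-voom and log2(TPM + 1) with limma 3.58.1 (pseudocount 1), scaling by RLE or by library size alone, a filter of at least 1 CPM in 3 libraries or none, removal of the rRNA gene CT010467.1, each day alone, and leaving out each library.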

Additional observations from a re-analysis of the deposited data

Results flagged for a closer look

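The Dox effect on 10 members differed between day 5 and day 0, and on 3 members between day 5 and day 3, by the interaction term of the edgeR fit, which is why they are listed here. Between day 5 and day 0 the log2 difference of the effects was -0.81 for Cdkn1a (adjusted p = 0.00036), -0.92 for Bbc3 (0.0033), -0.69 for Ak1 (0.0024), -0.85 for Pidd1 (0.0035), -0.83 for Phlda3 (0.012), -1.31 for Plk2 (0.023), -0.39 for Aen (0.027), 0.32 for Xpc (0.033), -1.72 for Perp (0.047) and -0.47 for Gtse1 (0.048).

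Between day 5 and day 3 the difference was -0.75 for Cdkn1a (edgeR adjusted p = 0.0013), -0.73 for Bbc3 (0.032) and -0.53 for Ak1 (0.042). Groups of 3 libraries were not searched for single outlying samples.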

How the results depend on the processing

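Over 56 results on named members and 946 values under alternatives, 816 kept their direction and their side of the threshold, 129 kept their direction and lost the call, 1 gained it (Mdm2 in controls from day 3 to day 5 with no filter, -0.21, adjusted p = 0.016) and 0 reversed. Results in the Dox contrasts and their differences entered the 56 only if called in the main fit, so none of them could gain a call. Members outside the 56 did gain calls there, for example Bax, Dcxr and Ddit4l at day 5 in DESeq2. Counts of members called moved as follows. At day 0 the count went from 0 to 1 with the replicate block, with DESeq2 and with no filter (Btg2 each time), and to 1 in the fit of day 0 libraries alone with the replicate block (Gdf15, 0.59, adjusted p = 0.032). At day 3 it went from 0 to 1 in the fit of day 3 libraries alone, with or without the block (Pmaip1). At day 5 it went from 14 to 8 on log2(TPM + 1) and to 22 in the fit of day 5 libraries alone, with or without the block. The difference between day 5 and day 3 went from 3 members to 5 with the replicate block, 6 with DESeq2, 12 with no filter and 1 with library size alone or on log2(TPM + 1). That between day 5 and day 0 went from 10 to 16 with DESeq2, 18 with no filter and 6 on log2(TPM + 1). The cause of these shifts was not tested. The share of all genes called was computed only for the main fit and, in the Dox contrasts and their differences, for the replicate block, DESeq2 and limma-voom. Counts under the other alternatives, here and below, thus cannot be read against all genes. The block otherwise gave 17 calls at day 5, 15 for day 5 against day 0, and 28 and 23 for the control steps, and it changed no other call in the Dox contrasts or their differences than those named in the text.

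Leaving out 1 library at a time gave 0 to 1 calls at day 0, 0 to 0 at day 3, 8 to 11 at day 5, 0 to 0 for day 3 against day 0, 1 to 2 for day 5 against day 3 and 5 to 19 for day 5 against day 0. For controls it gave 23 to 29 calls from day 0 to day 3 and 16 to 20 from day 3 to day 5. With library size alone, the all-gene median shifted by 0.148 in controls from day 0 to day 3, where 16 members then rose and 12 fell, and by at most 0.026 in the other contrasts. Counts limit Fas, and Gdf15 and Ephx1 at day 5. Intervals of replicate spread rest on 3 libraries a group.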
